A study of Canis lupus familiaris with 59 samples.

Results

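The 72 transcripts described here reached a deposited count of 10000 or more in at least 1 of 59 libraries of dog adrenal tissue, out of 28570 Ensembl gene identifiers in the table. Of 74 identifiers at or above that limit, 2 were set aside by the rule that chose the members, which lists 5 identifiers to leave out, so the members were chosen from the same counts that describe them. RNA came from 49 adrenocortical tumours that secrete cortisol and from 10 normal adrenal cortices of dogs labelled healthy, and was sequenced as CEL-Seq2 libraries, in which each molecule is read once at its 3′ end and marked with a unique molecular identifier (UMI). The labels give no treatment, age, sex, breed, batch or tumour class for any dog. Nothing in them says that each library is a different animal, so the p-values below measure the spread between these libraries. Tumours and normals carry numbers in their titles, 1 to 49 and 1 to 10, which serve as names here.

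The adrenal cortex turns cholesterol into steroid hormones such as cortisol, in steps that take place in mitochondria and in the endoplasmic reticulum. Cells that make steroids are known for high levels of the messengers of steroid enzymes, of mitochondrial genes and of the protein synthesis machinery. The table holds identifiers without symbols, and the reference at hand matched 0 of them. Which of these genes is a steroid enzyme, a mitochondrial gene or a marker of another cell type is therefore not said below, no role is given for any member, and the labelled tissue could not be checked against its defining genes. In bulk tissue, fewer cells of a type and less RNA per cell cannot be told apart.

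The 72 members held 27.0% of the counts of the median tumour, with 18.6% in tumour 18 at the low end and 37.6% in tumour 24 at the high end. In normals the median was 28.5%, from 23.3% in normal 1 to 42.7% in normal 7. The groups overlapped over most of this range, and only normal 7 lay above all tumours. These shares use the counts that chose the members and are a description without a test. Tumours 37 to 46 ranged from 23.8% to 28.4% and tumours 27 to 36 from 20.4% to 29.7%, against 18.6% to 37.6% in the remaining 29 tumours.

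**Figure D1:**
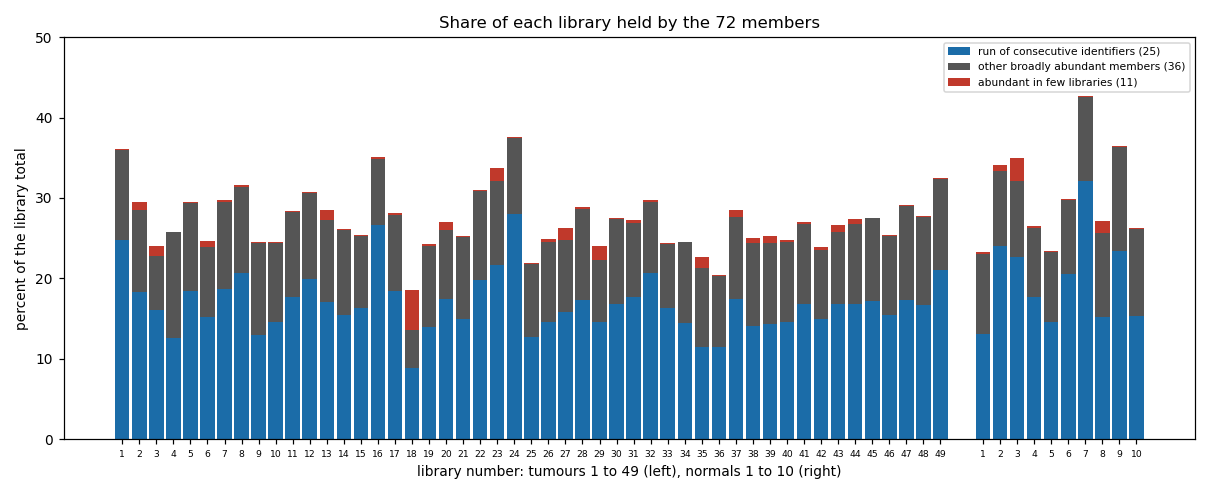
Share of each library's total count (y axis, percent) held by the 72 members, by library number (x axis, tumours left, normals right), in 3 stacked parts. Normal 7 has the tallest bar at 42.7%, and tumour 18 the shortest at 18.6% with the largest part from members abundant in few libraries.

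The members were not equally abundant everywhere, and the name most abundant transcripts held for only part of them. By median level over the 59 libraries, 52 of the 72 members were among the 72 genes of highest median. Levels are given as CPM, the count as a share of the library total in the usual CPM unit. TMM factors adjust that total through genes that do not stand apart. Since each molecule gives 1 tag at its 3′ end, CPM were not divided by length. The members fell into 3 sets, separated after their values were seen. A first set of 25 shares a run of consecutive identifiers. Another 36 lay elsewhere and were abundant in most libraries. The last, of 11, was abundant in few libraries, with a highest CPM at least 10 times the median. The ratio of highest to median CPM was 40.3 or more in these 11 and at most 8.05 in the other 61, whose median ratio was 2.52. Nearest below the dividing value were ENSCAFG00000006164, at 8.05, and ENSCAFG00000022709, at 7.51. The former ran from 25.0 to 6426 CPM in tumours, so its place outside the last set depends on that value.

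**Figure D2:**
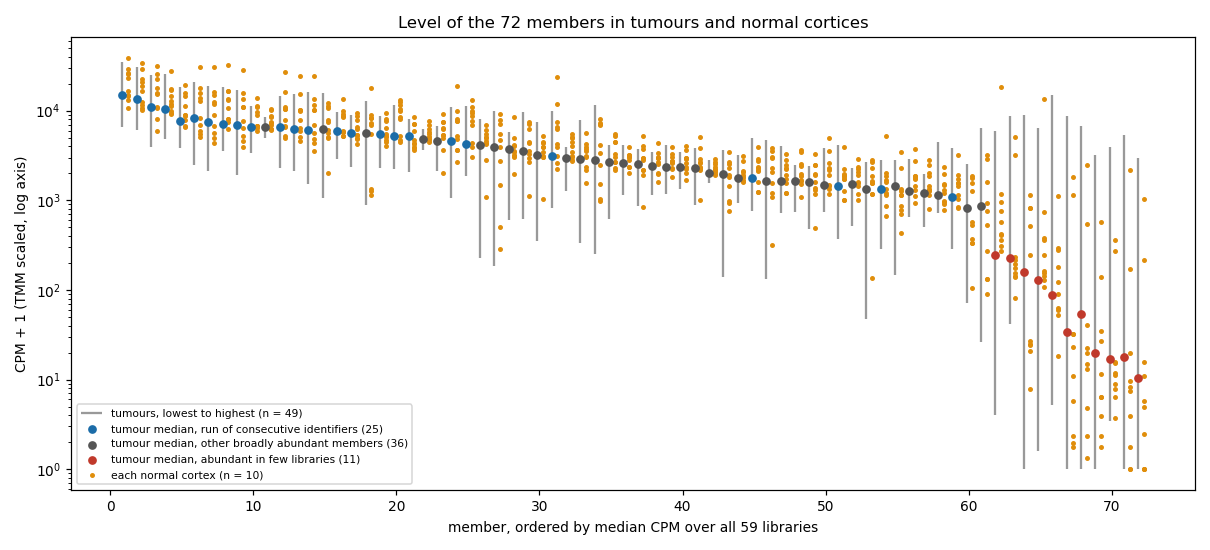
Level of each member (y axis, CPM + 1 after TMM scaling, log axis) against its rank by median CPM (x axis). Grey lines run from the lowest to the highest of 49 tumours, coloured points are tumour medians by set, and orange points are the 10 normals. Tumour medians fall slowly to about rank 61 and then drop to the 11 members abundant in few libraries, whose lines are the longest.

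The run of consecutive identifiers goes from ENSCAFG00000022708 to ENSCAFG00000022744 and holds 37 identifiers, all present in the table. Of these, 25 were members and 12 were not, with median counts of the latter between 35 and 2087. All 10 members of highest median CPM came from this run, as did 17 of the highest 20. The 37 identifiers together held 17.2% of the counts of the median tumour, from 9.09% in tumour 18 to 28.8% in tumour 24. In normals the median was 20.0%, from 13.7% in normal 1 to 33.6% in normal 7. Of the 20 most abundant genes of a library, between 11 and 19 belonged to the run, with a median of 16. Only 4 genes were among the 20 most abundant of every library, and all 4 were of the run.

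The member of highest median, ENSCAFG00000022735, stood at 14887 CPM in the median tumour, between 6504 and 34801 CPM, and at 19835 CPM in the median normal, between 10791 and 38929 CPM. The mean over the 49 tumours was 16343 ± 5868 CPM (SD), and over the 10 normals 21333 ± 8840 CPM (SD). Tumour 23 was the highest tumour and normal 7 the highest normal, and 6 tumours lay below all normals. The lowest tumour, tumour 9, and the lowest normal, normal 4, were both at the counting ceiling of 34070, described below. This count, the lower ends of both ranges and the means thus rest in part on clipped values. For ENSCAFG00000022729 the median was 13634 CPM in tumours, between 6098 and 30703 CPM, and 17817 CPM in normals, between 10060 and 34376 CPM. Its highest tumour was tumour 24, itself at the ceiling, and again 6 tumours lay below all normals. Tumour 9, also at the ceiling, was among these 6, so this count too rests in part on clipped values. ENSCAFG00000022728 had medians of 11054 CPM in tumours (3892 to 24761 CPM) and 15467 CPM in normals (5943 to 31506 CPM). ENSCAFG00000022726 had medians of 10399 CPM in tumours (4893 to 25920 CPM) and 12298 CPM in normals (9217 to 27804 CPM). In both of these genes the groups overlapped and normal 7 was the highest library. The order of the 4 medians was the same in tumours and normals, but neighbours in it differed by less than the SD over libraries.

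These uppermost levels are lower limits in many libraries. The deposited values are molecule estimates that end at 34070, the value given to 4095 of 4096 possible UMIs, and the 2 steps below the end are 31230 and 29570. A count of 10000 already stands for at least 3740 distinct UMIs, so the uppermost values lie on a coarse scale. ENSCAFG00000022735 was at the ceiling in 45 libraries, 37 tumours and 8 normals. ENSCAFG00000022729 was there in 24, and ENSCAFG00000022728 in 11. In all, 21 members reached the ceiling in some library and 51 never did. A member at the ceiling in a deep library gets a CPM that falls as the total rises, and the low CPM of such genes cannot be read as low expression.

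How many members passed the limit rose with the depth of a library, but not strictly. Library totals ran from 1007920 to 5449077. Tumour 9, the deepest, had 59 members at 10000 or more and 18 at the ceiling. Tumour 2, the shallowest, had 6 at the limit and 0 at the ceiling. The fewest at the limit, 5, were in tumour 36 with a total of 1355315. Tumour 24 had 17 with a total of 1283764, and normal 7 had 14 with 1062090. The median library had 22. For 27 members the limit was passed in 1 library alone, which was tumour 9 for 19 of them, tumour 18 for 7 and tumour 27 for 1. Only 2 members passed it in all 59 libraries, ENSCAFG00000022735 and ENSCAFG00000022729. In normals 36 members passed it at least once, and 0 passed it in normals alone. With counts scaled to the median total of 2112802, 45 genes would reach the limit, all of them members.

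**Figure D3:**
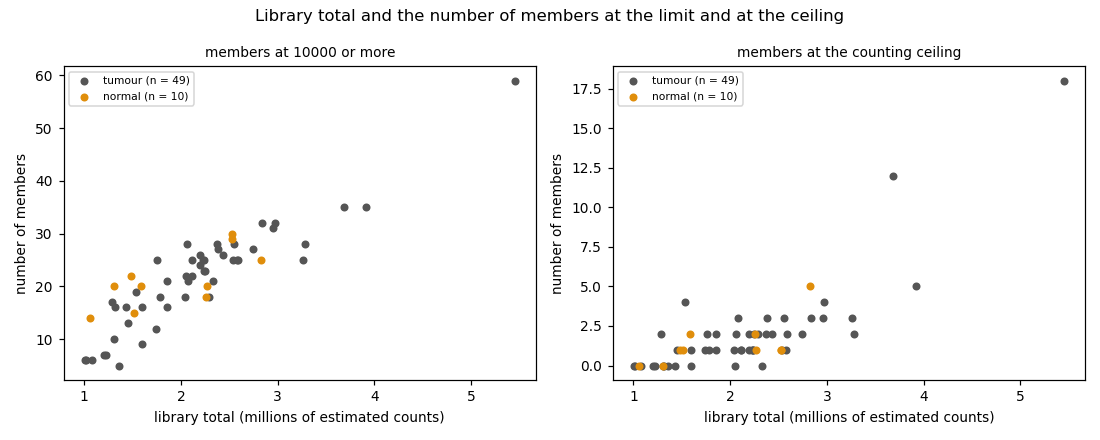
Number of members at 10000 or more (left) and at the ceiling of 34070 (right) on the y axes, against library total (x axes), 1 point for each tumour (grey) and normal (orange). Tumour 9 lies at the far right, with 59 members at the limit and 18 at the ceiling.

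The members just inside the limit were ENSCAFG00000003645, with a highest count of 10170, and ENSCAFG00000022040, with 10443, both in tumour 9. Just outside lay ENSCAFG00000011666 at 9949 in tumour 48 and ENSCAFG00000015433 at 9915 in tumour 9. The median levels of the genes inside were 1235 and 1599 CPM and those outside 1662 and 1827 CPM, so the limit does not part more abundant from less abundant genes there.

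Tumours and normals were then compared gene by gene, the one contrast that the labels allow. In edgeR's quasi-likelihood test over all 59 libraries, 1 of the 72 members was lower in tumours at a Benjamini-Hochberg adjusted p under 0.05, and 0 were higher. Over all 13004 genes tested, 0.508% were called lower and 0.0846% higher. At an unadjusted p under 0.05 there were 33 members lower and 1 higher, against 7.56% lower and 5.21% higher of all genes. DESeq2 and limma-voom also called 0 members higher. DESeq2 called 5 lower, against 0.987% of the genes it gave an adjusted p, and limma-voom 0, against 0.192%. All 72 members passed the filter on low counts. Since 49 of the 59 libraries that could bring a gene over the limit are tumours, the choice of members favours genes high in some tumour.

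The called member, ENSCAFG00000006810, had a median of 3001 CPM in tumours, between 1259 and 3979 CPM, and of 3718 CPM in normals, between 2728 and 5508 CPM. The means were 2832 ± 602 CPM (SD, n = 49) and 3920 ± 1022 CPM (SD, n = 10). The groups overlapped, with 18 tumours below all normals and 47 below the median normal. In the same quasi-likelihood test of edgeR this gene gave -0.47 ± 0.12 (SE) as its log2 fold change, at an adjusted p of 0.037. Of 24 alternative fits 12 kept the call, with edgeR, DESeq2 or limma adjusted p from 0.018 to 0.47 and log2 fold changes from -0.52 to -0.27. The call was lost when normal 5, 6, 7 or 9 was left out, with edgeR adjusted p of 0.096, 0.10, 0.13 and 0.098 in turn. It was also lost without tumours 27 to 36 (edgeR adjusted p = 0.080). Over the 20 same-numbered tumours and normals the edgeR adjusted p was 0.47 with a block on the number and 0.28 without it.

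Small differences of the same sign ran through most members. The log2 fold change was below 0 in 63 of 72 members, or in 43 with library totals in place of TMM, and in 47.0% of all genes tested with TMM. Its median was -0.24 in the members and 0.02 over all genes, a distance of -0.26. Scaling by library totals alone moved the median of all genes to 0.18 and that of the members to -0.04, a distance of -0.23. The number of members below the median of all genes was 63 with either scaling. A change of scaling moves the fold changes of all genes by a like amount, so this number cannot test the scaling. With TMM all 25 members of the run were below 0, while with library totals alone 5 of them were above it, ENSCAFG00000022739, ENSCAFG00000022740 and ENSCAFG00000022741 included. With TMM they ranged from -1.02 to -0.07 with a median of -0.40, and 18 had an unadjusted p under 0.05. In the set of 36 outside the run, 32 were below 0 with a median of -0.22. The 11 members abundant in few libraries were split, with 6 below 0. Several members of the run vary together across libraries, as shown further on, so these are not independent counts, and the fold changes of the 21 members at the ceiling rest on clipped values. Among the 51 members never at the ceiling, 43 were below 0, with a median of -0.20.

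Normal 7 moved with this pattern. It was the highest of all 59 libraries for 28 members, 15 of them of the run, and normal 9 was the highest for 8. Normal 7 had one of the lowest totals, 1062090 counts, and the lowest TMM factor, 0.69, while normal 9 had the next lowest factor, 0.74. A low factor raises all CPM of a library. Tumour 18, with the highest factor, 1.23, was the lowest library for 24 members. The members' share of the library total, which uses no factor, was also highest in normal 7, 42.7%, and lowest in tumour 18, 18.6%. What part the factors play in these ranks was not tested. Without normal 7 the number of members lower at an unadjusted p under 0.05 was 13 in place of 33, against 5.97% of all genes, and without normal 9 it was 21, against 6.16%. Over the 20 same-numbered tumours and normals, where 71 members were tested, it was 5 with a block on the number, against 5.71% of all genes, and 17 without the block, against 6.83%. The median log2 fold change of the members was -0.20 without normal 7, and 60 members were below 0. With log2 library total as a covariate 21 members were lower at an unadjusted p under 0.05, against 6.99% of all genes, and with library totals in place of TMM 10 were, against 1.87% of all genes.

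**Figure D4:**
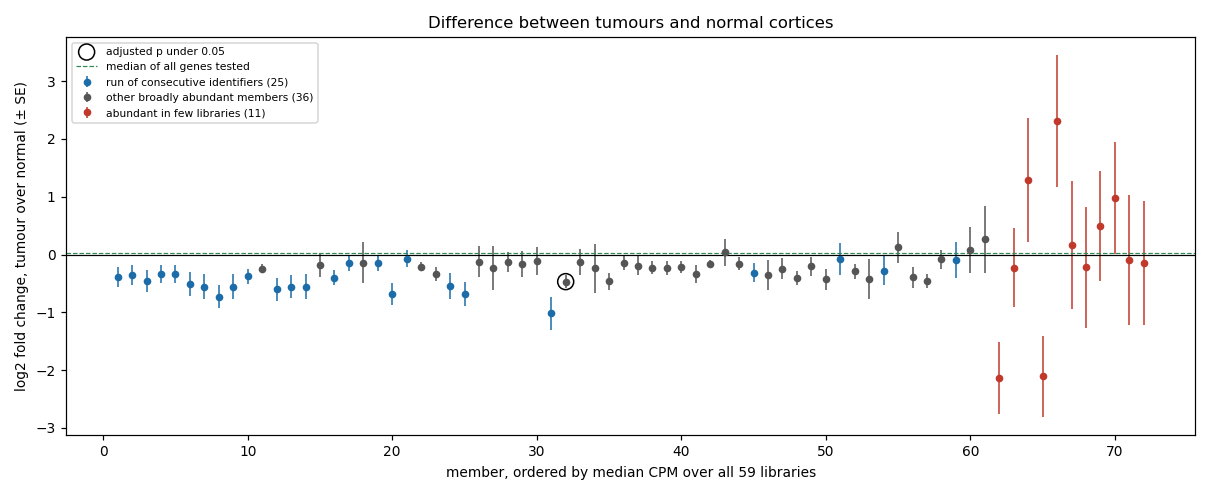
Log2 fold change of tumour over normal with its SE (y axis) for each member in order of median CPM (x axis), coloured by set, with the called member ringed and the median of all genes dashed. With TMM scaling 57 of the 61 points up to rank 61 lie below 0 (43 of all 72 with library totals), and the 11 members abundant in few libraries scatter to both sides with long error bars.

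Within the run the difference was uneven. ENSCAFG00000022709 had the largest, with a median of 3104 CPM in tumours (812 to 9901 CPM) and 5299 CPM in normals (2237 to 23627 CPM). Its log2 fold change was -1.02 ± 0.28 (SE), with an edgeR adjusted p of 0.065, and without normal 7, its highest library, it was -0.60 with an edgeR adjusted p of 0.43. ENSCAFG00000022742 had a median of 5186 CPM in tumours (2216 to 11591 CPM) and 9245 CPM in normals (4442 to 13297 CPM), where normal 2 was highest. Its log2 fold change was -0.69 ± 0.19 (SE; edgeR adjusted p = 0.064). In both genes 17 tumours lay below all normals, and each passed the threshold in 3 of the alternative fits but not in the test above. ENSCAFG00000022741, next in number to the latter, had medians of 5222 CPM in tumours (2068 to 8018 CPM) and 4523 CPM in normals (3654 to 8600 CPM). Its log2 fold change was -0.07 ± 0.15 (SE; edgeR adjusted p = 0.89) and turned to 0.04 without normal 3. Whether these members of the run differ from one another in the size of their difference was not tested. ENSCAFG00000022709 and ENSCAFG00000022742 were picked after their values were seen, as were ENSCAFG00000029904, ENSCAFG00000030286, ENSCAFG00000010090 and the 6 variable members described further on.

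The 11 members abundant in few libraries had medians from 8.59 to 306 CPM, and they passed the limit through a few libraries. For 7 of them tumour 18 was the highest library. ENSCAFG00000005988 reached 5418 CPM in tumour 18 and 2155 CPM in normal 8, followed by 1364 CPM in tumour 37, and its medians were 16.8 CPM in tumours and 6.80 CPM in normals. It had a count of 0 in 6 tumours and 2 normals. ENSCAFG00000019783 reached 2984 CPM in tumour 18 and 1032 CPM in normal 8, followed by 462 CPM in tumour 43, and had a count of 0 in 11 tumours and 3 normals. Both thus had the same first and second library, with normal 8 the highest normal in each. The same libraries came back in the rest of the 7: normal 8 was second in 5 of all 7, and tumours 37, 39 and 43 recurred among the first 5. The share of counts in all 11 was 4.94% in tumour 18, where the 61 other members held the least. In that library ENSCAFG00000024864 and ENSCAFG00000031950 were at the ceiling of 34070. Their counts there are lower limits, and the share rests in part on clipped values.

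Another pair shared other libraries. ENSCAFG00000029904 reached 18584 CPM in normal 3, 5865 CPM in tumour 35 and 5207 CPM in tumour 2, against medians of 244 CPM in tumours and 497 CPM in normals. ENSCAFG00000030286 reached 13564 CPM in normal 3, 6435 CPM in tumour 35 and 2074 CPM in tumour 2, against medians of 128 and 202 CPM. In both the first 3 libraries were the same and in the same order. Their log2 fold changes of -2.14 ± 0.62 and -2.10 ± 0.70 (SE; edgeR adjusted p = 0.087 and 0.16) turned on a few libraries. Without normal 3 they were -0.10 and 0.49, with edgeR adjusted p of 0.98 and 0.86. Without tumours 27 to 36, which include tumour 35, they were -2.64 and -3.08, and both passed the threshold (edgeR adjusted p = 0.047 and 0.0185).

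The remaining pair of the 11 was led by tumours alone. ENSCAFG00000008440, whose SD of 3.33 log2 CPM over tumours was the largest of all members, reached 9033 CPM in tumour 27, 7923 CPM in tumour 13 and 7210 CPM in tumour 23, with medians of 156 CPM in tumours and 136 CPM in normals. Its highest normal stood at 1141 CPM. ENSCAFG00000010090 reached 15051 CPM in tumour 29, 9733 CPM in tumour 3 and 9491 CPM in tumour 23. In each of the pair 8 of 49 tumours and 1 of 10 normals held 1000 CPM or more, and tumours 20, 23 and 27 were among the first 5 libraries of both. Neither was called between the groups. Their log2 fold changes were 1.283 ± 1.071 and 2.312 ± 1.135 (SE, edgeR adjusted p = 0.65 and 0.38).

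**Figure D5:**
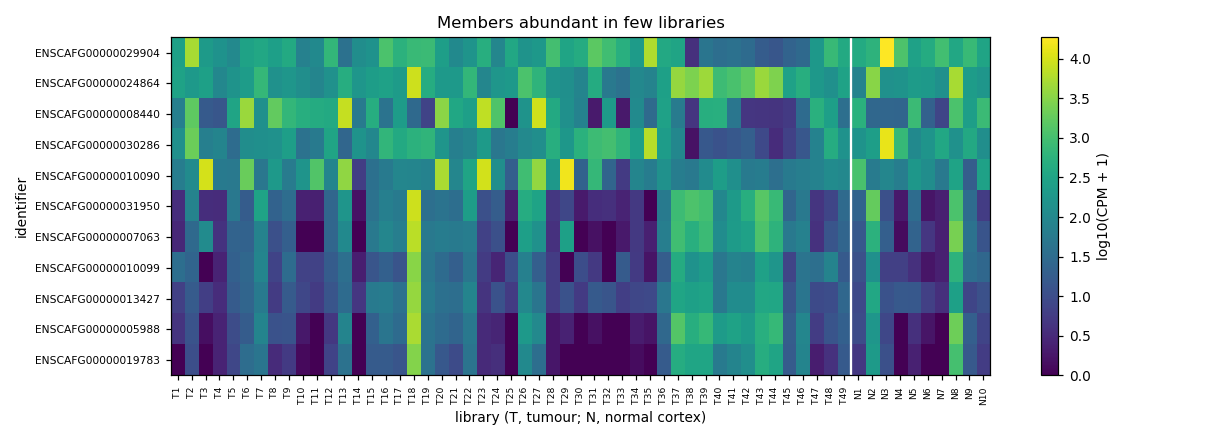
Level of the 11 members abundant in few libraries (rows) in each library (columns, T for tumours and N for normals, divided by a white line), as log10(CPM + 1) in colour. Tumour 18 is bright in the row of ENSCAFG00000024864 and in the lower 6 rows, normal 8 and tumours 37 to 39 and 43 to 44 are next, and normal 3 and tumour 35 are bright in the rows of ENSCAFG00000029904 and ENSCAFG00000030286.

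The members differed widely in how steady they were over libraries. The SD of log2 CPM over tumours had a median of 0.60 in the members and of 0.52 in all genes tested, from 0.17 to 3.33 in members. ENSCAFG00000004464 was the steadiest. It stood at 2012 CPM in the median tumour (1553 to 2795 CPM) and 2210 CPM in the median normal (1918 to 2923 CPM), with an SD of 0.17 in tumours and 0.20 in normals. ENSCAFG00000037288 followed, with 4880 CPM in tumours (3632 to 6323 CPM) and 5326 CPM in normals (4416 to 7677 CPM), and SDs of 0.18 and 0.26. In edgeR the log2 fold change was -0.16 ± 0.07 (SE) for the former and -0.21 ± 0.08 (SE) for the latter, with adjusted p of 0.33 and 0.20. With library totals alone the former was 0.03. The SD was larger in normals than in tumours for 51 of 72 members, and for 58.1% of all genes tested. This held for all 21 members that reached the ceiling and for 30 of the 51 that never did, or 58.8%.

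Among the 61 members outside the set abundant in few libraries, 6 had an SD over 1 in tumours. ENSCAFG00000010279 was the most abundant, at 5609 CPM in the median tumour (876 to 12704 CPM) and 7102 CPM in the median normal (1135 to 17692 CPM). ENSCAFG00000010039 stood at 3940 CPM (182 to 9966 CPM) and 4335 CPM (287 to 9082 CPM), and ENSCAFG00000032526 at 2835 CPM (248 to 11601 CPM) and 3758 CPM (978 to 8114 CPM). In these 3 genes the lowest and the highest tumour lay more than 10-fold apart. The SD of log2 CPM in normals was 1.40, 1.72 and 1.19 in this order, against 1.16, 1.30 and 1.46 in tumours. ENSCAFG00000035670 ranged from 45.9 to 2681 CPM in tumours and from 134 to 2804 CPM in normals. ENSCAFG00000020360 ranged from 70.3 to 2556 CPM in tumours and from 104 to 1866 CPM in normals. ENSCAFG00000006164 ranged from 25.0 to 6426 CPM in tumours and from 89.1 to 3202 CPM in normals. None of the 6 was called between the groups (edgeR adjusted p from 0.64 for ENSCAFG00000035670 to 0.97 for ENSCAFG00000020360).

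These 6 members did not all vary together. Of their 15 pairs 7 had a Pearson correlation over the 59 libraries with an adjusted p under 0.05 (permutation test, two-sided, 100000 resamples, Benjamini-Hochberg over 15 pairs), a family chosen after the data were seen. ENSCAFG00000010279 and ENSCAFG00000010039 gave r = 0.74 and rho = 0.75 (permutation p = 1e-05 for each, the smallest these permutations can give, adjusted p = 7.5e-05). The correlation was 0.72 in tumours alone, 0.81 in the 10 normals alone (permutation p = 0.0082, adjusted p = 0.041), and 0.70 without the 2 libraries farthest from the median of the first gene. ENSCAFG00000032526 and ENSCAFG00000020360 gave r = 0.73 and rho = 0.74 (permutation p = 1e-05, adjusted p = 7.5e-05), with 0.73 in tumours, 0.85 in normals (permutation p = 0.0023, adjusted p = 0.017) and 0.71 without the 2 farthest libraries. ENSCAFG00000010039 and ENSCAFG00000006164 went in opposite directions, at r = -0.39 and rho = -0.41 (permutation p = 0.0025 and 0.0013, adjusted p = 0.0063 and 0.0040). In tumours alone this r was -0.32 (permutation p = 0.024, adjusted p = 0.051), in the normals alone -0.70 (permutation p = 0.023, adjusted p = 0.070), and without the 2 farthest libraries -0.36. ENSCAFG00000006164 rose with ENSCAFG00000032526, ENSCAFG00000020360 and ENSCAFG00000035670, at r = 0.453, 0.441 and 0.335 (permutation p = 0.00036, 0.0004 and 0.0088, adjusted p = 0.0012, 0.0012 and 0.019). The last of these was 0.215 without the 2 farthest libraries (permutation p = 0.105, adjusted p = 0.197). Across the 2 close pairs, ENSCAFG00000010279 and ENSCAFG00000020360 also correlated, at r = 0.50 and rho = 0.42 (permutation p = 8e-05 and 0.0011, adjusted p = 0.0004 and 0.0040). This r was 0.55 in tumours alone (permutation p = 9e-05, adjusted p = 0.00045), 0.32 in the 10 normals alone (permutation p = 0.37, adjusted p = 0.70), and 0.44 without the 2 farthest libraries. By contrast, ENSCAFG00000010039 and ENSCAFG00000032526 gave r = -0.05 (permutation p = 0.69, adjusted p = 0.69) and rho = 0.02 (permutation p = 0.86, adjusted p = 0.86).

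A second family of 15 pairs joined the 6 most abundant members that never met the ceiling. ENSCAFG00000022739 and ENSCAFG00000022740 gave r = 0.99 and rho = 0.98, and ENSCAFG00000022740 and ENSCAFG00000022741 gave r = 0.98 and rho = 0.97 (permutation p = 1e-05, adjusted p = 1.87e-05 for both r and 3.75e-05 for both rho). In tumours alone both r were 0.99 and 0.98, in normals 0.98 and 0.98, and without the 2 farthest libraries 0.98 and 0.98. These 3 have consecutive identifiers and like levels, with medians in tumours of 5648, 5494 and 5222 CPM. Whether their gene models overlap or share reads was not tested. ENSCAFG00000022724, of the same run but not next in number, was less close to them, with r from 0.58 to 0.65 and rho from 0.43 to 0.49 (permutation p up to 2e-05 for r and 0.00078 for rho, adjusted p up to 3.33e-05 and 0.0012). It was as close to ENSCAFG00000037288, which lies outside the run, at r = 0.66 and rho = 0.54 (permutation p = 1e-05 and 2e-05, adjusted p = 1.87e-05 and 5e-05). With library totals its r with the 3 run members was 0.46 to 0.50, and with ENSCAFG00000037288 0.33. The level of ENSCAFG00000022724 was 5986 CPM in the median tumour (2885 to 9564 CPM) and 7214 CPM in the median normal (5207 to 13450 CPM), and 14 tumours lay below all normals. Its log2 fold change was -0.40 ± 0.13 (SE; edgeR adjusted p = 0.14).

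Outside the run, ENSCAFG00000003263 stood at 4622 CPM in the median tumour (2118 to 6816 CPM) and 5815 CPM in the median normal (2037 to 9138 CPM). Its log2 fold change was -0.33 ± 0.12 (SE; edgeR adjusted p = 0.22), and it passed the threshold without normal 4 (-0.43, edgeR adjusted p = 0.046). It correlated with ENSCAFG00000037288 at r = 0.49 and rho = 0.40 (permutation p = 8e-05 and 0.0020, adjusted p = 0.00012 and 0.0027), which was r = 0.36 without the 2 farthest libraries. With library totals in place of TMM this r was -0.05 (permutation p = 0.70, adjusted p = 0.72). The value thus differed with the scaling used, and which scaling describes this pair better was not tested. In all, 12 of the 15 pairs passed with TMM and 9 with library totals. All CPM of a library share its total and its scaling factor, which enters every one of these correlations.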

How the data were processed

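The 49 tumour and 10 normal libraries were made with CEL-Seq2, per the labels' protocols. The aligner BWA and the build CanFam3.1 appear in the submitters' processing notes. How reads were counted, filtered or pooled, and with which annotation, is not given in the sources used here. Values deposited by the authors are estimated counts: whole numbers that needed no rounding. All of them (100%) lie in the set of rounded N·(−ln(1 − k/N)) with N = 4096 and whole k, the form of a correction for UMI collisions read from the values, as no header records it; inverting it gave distinct UMIs. The 59 columns each matched 1 sample and 0 were left over. The test planned for counts was used on these estimated counts.

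Genes were filtered with filterByExpr, scaled by TMM and tested with edgeR 4.0.16 in R 4.3.3 (robust quasi-likelihood F test, two-sided) over the whole table. The method was checked on simulated counts that lacked the ceiling and the coarse steps below it, so that check does not cover clipped values. SEs were derived from fold change and F. Log2 CPM used a prior count of 2. Alternatives used DESeq2 1.42.0 and limma 3.58.1 (voom with sample weights), other scaling and filters, distinct UMIs, and libraries left out. No 2 libraries agreed within sampling noise (lowest chi-square per gene 4.74, median 24.0). The members and lists were chosen with earlier results of these data known. The rule for named members took the 4 of highest median, called members, the 3 most often at the ceiling, the 2 most and least variable, the 2 just inside the limit, the 6 in the planned correlations and the 2 of largest ratio of highest to median. Planned lists by gene symbol were not used, for want of symbols.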

Additional observations from a re-analysis of the deposited data

Results flagged for a closer look

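Over the 10 normals, 22 measures (5 of whole libraries and 17 named members) were screened with Dixon's gap ratio, whose 95% limit about 1 in 20 sets of ordinary values pass. It singled out 1 value. In normal 4, 5 members were at the counting ceiling, against 0 to 2 in the other 9 normals. This library was also the deepest normal, with 2828219 counts.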

How the results depend on the processing

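The number of members called lower was 1, against 0.508% of all genes. With DESeq2 it was 5, against 0.987% of the 9222 genes given an adjusted p. The number was 2 without tumours 27 to 36 (0.256% of all genes) and 2 without tumour 9 (0.547%). It was 0 with library totals only (0.131%), limma-voom (0.192%), no filter on low counts (0.256%), distinct UMIs (0.528%) or the depth covariate (0.277%). With each normal left out it was 0 to 5, while the share of all genes ran from 0.213% without normal 5 to 1.04% without normal 2; the 5 came without normal 4 (0.712%). Over all 24 alternatives 8 different members were called at least once, and 0 were called higher. With the replicate block over 20 libraries 0 members were called (0.0102% of all genes), and without it 0 (0.0614%). The normals came from dogs labelled healthy, so by the labels a same-numbered tumour and normal are not from 1 dog. Whether the title numbers pair the samples in another way, such as handling, was not settled. Deviations of same-numbered libraries correlated at over 0.1 in 5 of 10 pairs, from -0.09 to 0.27. Libraries of unlike number were not compared in this way, so these values have no baseline. Of 379 alternative fits of 16 members, 352 kept direction and side of the threshold, 12 lost the call (all of ENSCAFG00000006810), 9 gained one and 6 turned the sign. Among the 16 were ENSCAFG00000022709, ENSCAFG00000022742, ENSCAFG00000029904 and ENSCAFG00000030286, picked after their values were seen. ENSCAFG00000003645, 1 of the members named by rule but left out of the 16, gave -0.46 ± 0.13 (SE, edgeR adjusted p = 0.066). It was called lower with DESeq2 (adjusted p = 0.041). In edgeR it was called without normal 2, normal 4 or tumour 9 (adjusted p from 0.024 to 0.043). With library totals only the log2 fold change became 0.025 for ENSCAFG00000004464, 0.029 for ENSCAFG00000022739, 0.030 for ENSCAFG00000022740 and 0.096 for ENSCAFG00000022741. With each normal left out it ran from -0.121 to 0.039 for ENSCAFG00000022741 and from -2.259 to 0.485 for ENSCAFG00000030286, both highest without normal 3. The members' share had medians of 27.0% in tumours and 28.5% in normals, and with distinct UMIs these were 12.1% and 13.3%. The correction raises high counts by a larger factor than low ones: 2048 UMIs stand for 2839 molecules and 3740 for 10006. With the limit on scaled counts the tumour median was 22.3%, with 27 members fewer. The 12 of 15 called pairs among abundant members became 9 with library totals, 6 in the 10 normals alone and 11 to 12 under the other 4 settings. Except where stated, the cause was not tested. The ceiling limits 21 members.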
